A study of Bos taurus with 8 samples.

Results

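The mRNA of Wnt signaling were followed in the corpus luteum (CL) at the time when the bovine CL is either lost or rescued by pregnancy. Of 13861 genes in the table, 48 were members, chosen by symbol: the Wnt ligands, Frizzled receptors, Norrin (NDP) and its partner TSPAN12, secreted Dickkopf and SFRP inhibitors, R-spondins and their receptors, the cytoplasmic and nuclear transducers, and the TLE corepressors. LRP5, DKK4, RSPO1, RSPO4, TLE5 and TLE6 were not analysed here. All CL came from Holstein heifers slaughtered on day 17 after estrus. The cyclic group holds 4 heifers that were not bred (replicates 1 to 4), and the pregnant group holds 4 that were bred and found to be pregnant (replicates 1, 2, 4 and 5). Each CL is from a separate animal, the labels name no treatment other than breeding, and they give no age. RNA was taken from frozen CL tissue with no sorting of cells named, so each value mixes steroidogenic, endothelial, stromal and immune cells. Strand-specific libraries gave 42770725 to 48294165 reads per CL in the genes of the table, as recovered from the normalized counts. The 48 members took 0.169 to 0.199% of these. The smallest value in each CL was 0.920 to 1.09 normalized counts, taken as 1 read, so no gene of the table lacked reads in any CL. Genes of the pathway without reads in some CL may therefore be missing, both from the members and from all genes.

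Wnt proteins are lipid-modified ligands that bind Frizzled receptors on nearby cells. In the β-catenin branch, a Frizzled with its co-receptor LRP5 or LRP6 recruits Dishevelled (DVL), the complex of AXIN and APC stops marking β-catenin (CTNNB1) for destruction, and β-catenin enters the nucleus, where it takes over TCF and LEF factors that TLE proteins otherwise hold in a repressing state. Norrin is not a Wnt, but it drives the same branch through FZD4, LRP5 and the tetraspanin TSPAN12, and this route builds the blood vessels of the retina. In mice, the ovary also needs Fzd4, because females without it form poor CL and are infertile.

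None of the 48 mRNA passed the test between pregnancy and the cycle (limma adjusted p under 0.05, smallest 0.485 for TSPAN12). Of all 13861 genes 3 passed, or 0.0216%. The paper reports a larger number of differentially abundant mRNA between these groups, by a test that it does not name. Members were chosen with earlier results of these data known, so their shares given below carry no test. At an unadjusted p under 0.05 there were 8 members, or 16.7%, beside 7.51% of all genes. More abundant in pregnancy at this level were TSPAN12, SFRP2 and TLE1, which are 3 of 48 beside 3.66% of all genes, and less abundant were NDP, WNT2, DKK3, TLE3 and TCF7, which are 5 of 48 beside 3.85%. In edgeR 0 members passed, where 0.00721% of all genes did, and in DESeq2 0 passed, where 0.723% did, with 7 and 9 members at an unadjusted p under 0.05 beside 8.12 and 9.46% of all genes. The groups did not overlap in 1 member, FZD8, or 2.08%, beside 4.3% of all genes, so this share is near or under the background. Of the 48, 23 lay above 0 in log2 difference and 25 lay below, with a median of -0.07, beside a median of 0.00047 over all genes. A log2 difference, used throughout, is the mean of log2(normalized count + 1) in pregnancy minus that in the cycle, and it understates the change of mRNA with few reads. In bulk tissue, fewer cells of a type and less mRNA per cell cannot be told apart.

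**Figure D1:**
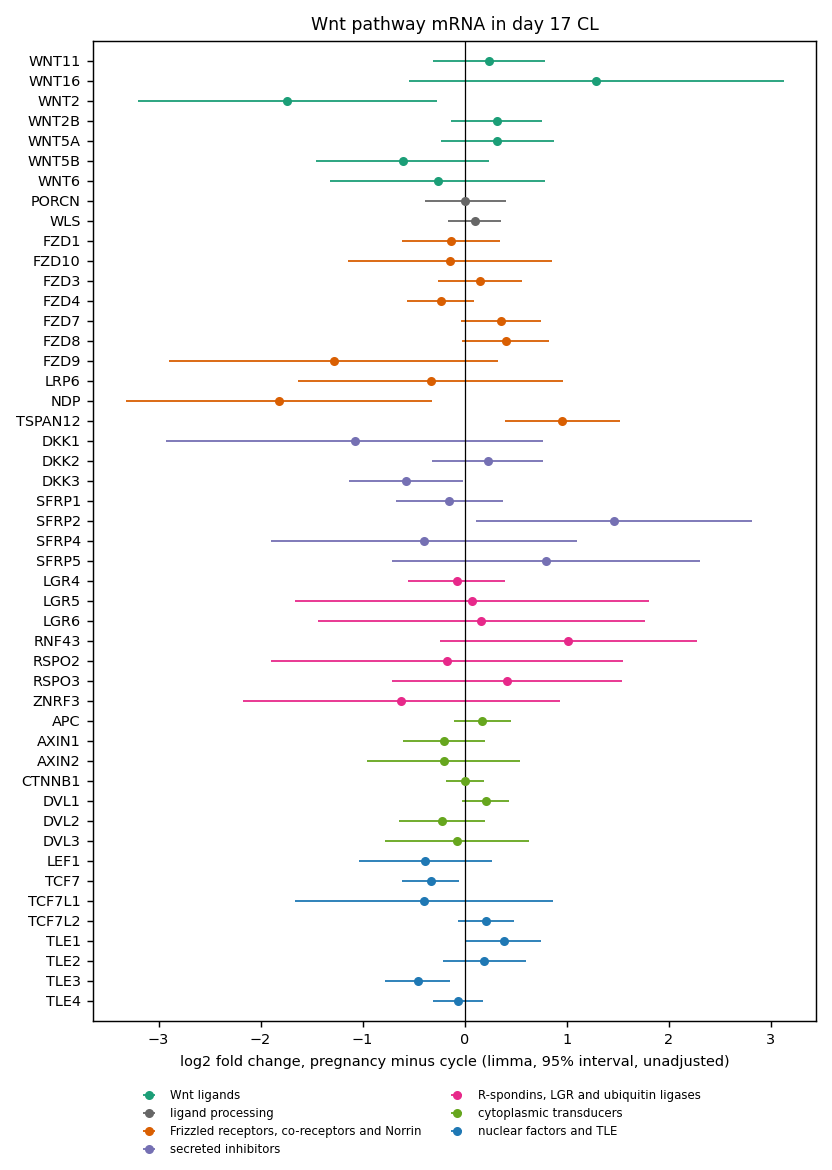
Log2 difference of each of the 48 members, pregnancy minus cycle, with the 95% interval from limma (n = 4 per group, not adjusted for the number of genes), colored by role. The interval of CTNNB1 is the narrowest of the abundant members shown, from -0.18 to 0.19, while those of NDP, from -3.32 to -0.32, and of mRNA with few reads are wide.

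The steroidogenic markers STAR and HSD3B1, a cholesterol carrier and an enzyme of progesterone synthesis, had 496165 to 1055020 and 407776 to 675386 normalized counts per CL. No member of the endothelial list, which marks the cells where Norrin and FZD4 are best known, passed either. Summed over 9 endothelial markers, CL of the cycle had 89342 to 108143 and CL of pregnancy 83846 to 115528 normalized counts, and 3 of the 9 were above 0 in log2 difference. Summed over 8 T and NK cell markers, the cycle had 1361 to 2445 and pregnancy 2488 to 3105. All 8 were above 0 and 4 had an unadjusted p under 0.05, a level that 7.51% of all genes reached. The 6 fibroblast markers were all below 0, with sums of 655819 to 1017370 and 620910 to 800220. No marker of any list was called in limma or edgeR. In DESeq2, where 0.723% of all genes passed, 1 was, the luteal marker INHA, a subunit of inhibin (adjusted p = 0.0250). It had 4103 to 11830 normalized counts in the cycle and 2301 to 3303 in pregnancy. The fibroblast marker DCN, a matrix proteoglycan, also did not overlap, with 36081 to 49702 and 27485 to 35632. Neither did the T and NK cell marker CD2, higher in pregnancy, with 268 to 447 and 493 to 606. Over all genes, 4.3% did not overlap. Summed over 7 pericyte and smooth muscle markers, the cycle had 67546 to 82714 and pregnancy 63821 to 89417, and 3 of the 7 were above 0.

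Among the 7 Wnt ligands, WNT11 and WNT2B were the most abundant by normalized count, a scale that is not corrected for transcript length. WNT11 (ENSBTAG00000010820), which mostly signals without β-catenin, had 1874, 4165, 2121 and 2941 normalized counts in cyclic replicates 1 to 4. In pregnant replicates 1, 2, 4 and 5, in this order, it had 2831, 2869, 2696 and 4352. The groups overlapped, and the highest CL of each was cyclic replicate 2 and pregnant replicate 5 (log2 difference 0.24, SE 0.25, limma adjusted p = 0.832). WNT2B (ENSBTAG00000014291), a ligand of the β-catenin branch, had 796, 959, 633 and 832 in the cycle. The CL of pregnancy had 1071, 1359, 921 and 719, so the lowest CL of pregnancy lay within the range of the cycle (0.32, SE 0.20, limma adjusted p = 0.731).

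WNT2 (ENSBTAG00000008097), a close relative of WNT2B, was present at a few reads only. It had 8.70, 17.4, 34.6 and 9.81 normalized counts in the cycle. Pregnant replicates 1, 2, 4 and 5 had 7.67, 0.995, 9.20 and 2.15, of which the 0.995 is 1 read, the smallest number recorded. The highest CL of pregnancy just passed the lowest of the cycle (log2 difference -1.74, SE 0.66, limma adjusted p = 0.614). The other ligands followed no single direction. WNT5A, which acts on cell polarity and movement, had 348 to 723 normalized counts over the 8 CL and a log2 difference of 0.32. WNT5B, WNT6 and WNT16 had 1 to 44 reads per CL, with log2 differences of -0.61, -0.27 and 1.29.

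Both genes that make Wnt ready for release lay near 0 in log2 difference. WLS (ENSBTAG00000012976), the carrier that takes Wnt to the cell surface, had 5999, 4299, 5373 and 4502 normalized counts in the cycle and 5471, 5843, 4907 and 5264 in pregnancy (log2 difference 0.10, 95% interval -0.16 to 0.36, limma adjusted p = 0.849). PORCN (ENSBTAG00000009282), the enzyme that attaches the lipid to Wnt, had 247, 297, 210 and 204 in the cycle and 240, 213, 264 and 238 in pregnancy (0.01, 95% interval -0.39 to 0.41, limma adjusted p = 0.997). These intervals allow a difference of either sign.

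The Norrin system held TSPAN12, the member with the smallest limma p of the 48. This tetraspanin (ENSBTAG00000015337), which strengthens signaling from Norrin through FZD4, had 5717, 3487, 2324 and 3350 normalized counts in the cycle. In pregnancy it had 6714, 6450, 5457 and 9352. Of the 4 CL of pregnancy, 3 lay above every CL of the cycle, and pregnant replicate 4, at 5457, lay just under cyclic replicate 1, at 5717. The means were 3719 ± 1429 and 6993 ± 1663 (SD, n = 4 each), a log2 difference of 0.96 (SE 0.25, 95% interval 0.40 to 1.52, limma adjusted p = 0.485). Over the 16 alternatives the log2 difference lay between 0.61 and 1.19 and the adjusted p between 0.0642, in DESeq2, and 0.780. TSPAN12 was the 1 member with an unadjusted p under 0.05 in all 16 alternatives.

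NDP (ENSBTAG00000012623), the ligand itself, had 1228, 148, 877 and 265 normalized counts in the cycle. The CL of pregnancy had 233, 132, 160 and 53.7. The high values came from cyclic replicates 1 and 3, while cyclic replicate 2 lay among the CL of pregnancy. The means were 629 ± 511 and 145 ± 74.1 (SD, n = 4 each), a log2 difference of -1.82 (SE 0.67, limma adjusted p = 0.612) with a range of -2.36 to -1.09 over the 16 alternatives. Its unadjusted p was under 0.05 in 12 of 16 alternatives. The same CL stood out in KRT18, a keratin of epithelium, with 8546 in cyclic replicate 1, 1487 in cyclic replicate 3 and 193 to 896 in the others. KRT18 was 1 of 6 surface epithelium markers, 4 of which were above 0, with sums of 2286 to 10456 in the cycle and 2189 to 4009 in pregnancy and EPCAM at 3.22 to 15.5 normalized counts. KRT18 itself made up most of the sum of 10456. CDH1 was highest in cyclic replicate 1, at 1088, but was at 221 in cyclic replicate 3. MSLN, UPK3B and KRT19 were lowest of the cycle in cyclic replicate 1, at 716, 60.9 and 33.7. The part of surface epithelium in the NDP values was not tested.

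FZD4 (ENSBTAG00000040128), the receptor of Norrin, had 2759, 2153, 3079 and 3680 normalized counts in the cycle. Pregnant replicates 1, 2, 4 and 5 had 2547, 2439, 2489 and 2271, a narrow range that lay inside that of the cycle. Its log2 difference was -0.23 (SE 0.15, limma adjusted p = 0.728), which became -0.37 without cyclic replicate 2 and -0.11 without cyclic replicate 4. Norrin and its receptor were thus both below 0 and the tetraspanin above it, and none of the 3 passed the test.

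**Figure D2:**
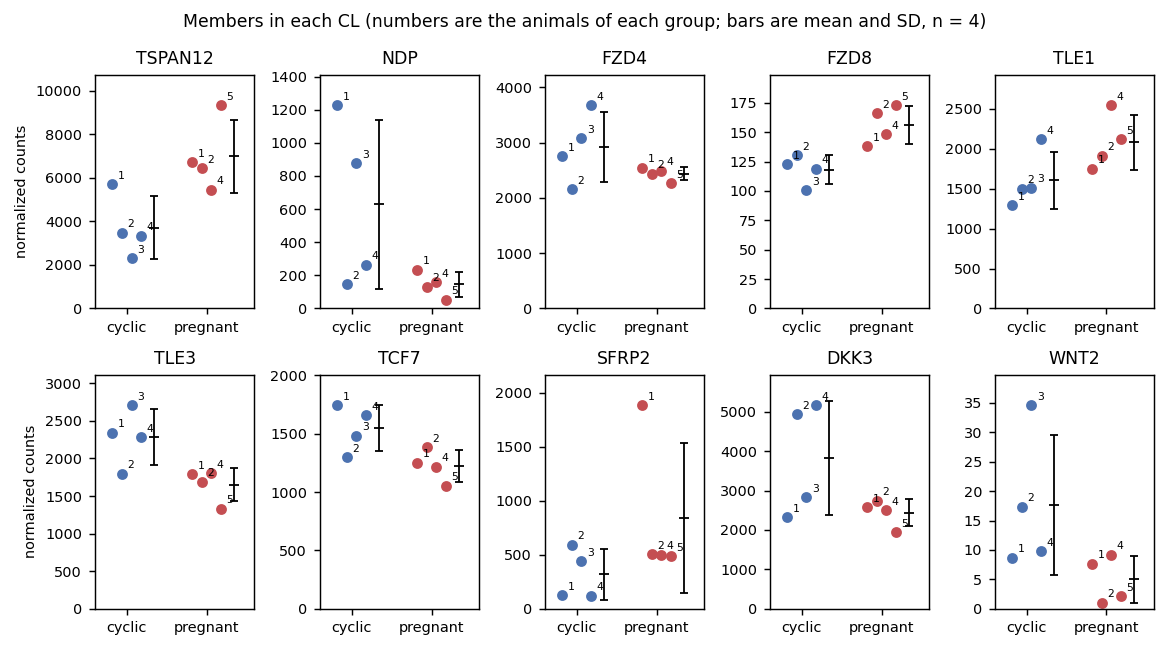
Normalized counts (linear axes from 0) of 10 members in each CL, with the replicate number beside each point and the mean and SD (n = 4) at the right of each group. TSPAN12 was highest in pregnant replicate 5 at 9352, NDP was highest in cyclic replicates 1 and 3, and SFRP2 was highest in pregnant replicate 1 at 1884.

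After these values were seen, the ratio of TSPAN12 to FZD4 was taken within each CL, where the factor of each library cancels. It was 2.07, 1.62, 0.755 and 0.910 in the cycle. In pregnancy it was 2.64, 2.64, 2.19 and 4.12. The groups did not overlap, with the nearest values being cyclic replicate 1 at 2.07 and pregnant replicate 4 at 2.19. Among all 1128 pairs of members the ratio did not overlap between groups in 64, or 5.67%, and this pair was picked for its values, so it carries no test.

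FZD8 (ENSBTAG00000015072), a further Wnt receptor, had 123, 130, 101 and 119 normalized counts in the cycle. In pregnancy it had 138, 166, 148 and 173, each of which lay above every CL of the cycle (log2 difference 0.40, SE 0.19, limma adjusted p = 0.668). FZD7, a receptor of many Wnts, had 251 to 334 in the cycle and 317 to 448 in pregnancy (0.35, 95% interval -0.04 to 0.75). FZD1 had 1859 to 3356 and 1583 to 2692 normalized counts (-0.14), and FZD3, a receptor of planar polarity, had a log2 difference of 0.15. FZD10 had -0.14 and FZD9, at 1 to 20 reads per CL, had -1.28. The co-receptor LRP6 was recorded at 2 to 12 reads per CL and had -0.33 (95% interval -1.63 to 0.97), so only a very large difference was detectable at this depth.

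Secreted inhibitors differed in their spread between heifers of a group, with a median SD of 1.07 on the log2 scale over the 7. DKK2, DKK3 and SFRP1 had 0.42, 0.44 and 0.41, and SFRP2 and SFRP4 had 1.08 and 1.18. DKK1 and SFRP5, which had few reads, were at 1.39 and 1.07. DKK2 (ENSBTAG00000012969) and DKK3 (ENSBTAG00000004275) had the highest normalized counts. DKK2, which binds LRP co-receptors, had 3516, 2992, 4253 and 6146 in the cycle and 5402, 4661, 6247 and 3273 in pregnancy (log2 difference 0.23, SE 0.24, limma adjusted p = 0.838). DKK3, a divergent member of the family, had 2331, 4942, 2833 and 5162 in the cycle. The CL of pregnancy had 2575, 2745, 2503 and 1938. Cyclic replicates 2 and 4 lay far above all other CL, while cyclic replicate 1 lay below 3 of the 4 CL of pregnancy (-0.57, SE 0.25, limma adjusted p = 0.647).

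SFRP2 (ENSBTAG00000018563) resembles the Wnt-binding part of a Frizzled and can capture Wnt outside the cell. It had 126, 594, 438 and 120 normalized counts in the cycle. Pregnant replicates 1, 2, 4 and 5 had 1884, 506, 501 and 485. Pregnant replicate 1 lay far above all others, the remaining CL of pregnancy lay close together, and cyclic replicate 2 lay above them. Its log2 difference was 1.47 (SE 0.61, limma adjusted p = 0.628) and lay between 0.99 and 1.91 over the 16 alternatives. SFRP4, for which the SD within groups was 1.18 on the log2 scale, had 56.9 to 532 in the cycle and 83.5 to 257 in pregnancy (-0.40). SFRP1 had 1509 to 3746 and 2169 to 2658 (-0.15), and DKK1 and SFRP5, at 2 to 35 and 2 to 30 reads per CL, had -1.08 and 0.80. SFRP2 and DKK3 are mRNA of stromal cells in many tissues. The fibroblast sums given above lay lower in pregnancy in their range, in the direction of DKK3 and opposite to SFRP2. Of the pericyte and smooth muscle markers, DES, a filament of muscle cells, had 128 to 774 in the cycle and 493 to 2173 in pregnancy (1.45, SE 0.57, limma adjusted p = 0.622), in the direction of SFRP2. Of the 7 markers of that list, 4 were below 0, and its sums overlapped. DES was highest in pregnant replicate 2, at 2173, and had 577 in pregnant replicate 1, where SFRP2 was highest. The part of these cells was not tested.

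R-spondins strengthen Wnt signals by tying LGR receptors to the ubiquitin ligases ZNRF3 and RNF43, which otherwise remove Frizzled from the cell surface. LGR4 (ENSBTAG00000002606), the most abundant of these 7 mRNA by normalized count, had 10920, 5351, 8992 and 9603 in the cycle and 8945, 8691, 8637 and 6044 in pregnancy (log2 difference -0.08, 95% interval -0.56 to 0.40, limma adjusted p = 0.950). Its lowest CL were cyclic replicate 2 and pregnant replicate 5. RSPO3 (ENSBTAG00000008121), a ligand of LGR4, had 387, 785, 243 and 124 in the cycle. In pregnancy it had 228, 554, 489 and 472, all within the range of the cycle (0.42, SE 0.51, limma adjusted p = 0.854). LGR5, LGR6, RSPO2, RNF43 and ZNRF3 had 1 to 32 reads per CL and log2 differences from -0.62 to 1.02, each with an interval that held 0.

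CTNNB1 (ENSBTAG00000016420), β-catenin, had 16954, 15595, 16230 and 16704 normalized counts in the cycle. The CL of pregnancy had 15209, 17743, 17644 and 15238. The log2 difference was 0.0044 (SE 0.08, limma adjusted p = 0.997), and the 95% interval of -0.18 to 0.19 covers the size of difference that these 8 CL allow for the mRNA, which does not measure the protein or its place in the cell. APC (ENSBTAG00000018852), a scaffold of the complex that destroys β-catenin, had 11167, 9112, 11314 and 12110 in the cycle and 13305, 12981, 13317 and 9839 in pregnancy. In pregnancy 3 CL lay above every CL of the cycle and pregnant replicate 5 lay within it (0.17, SE 0.13, limma adjusted p = 0.756). Among the Dishevelled mRNA, DVL1 had 0.21 (95% interval -0.02 to 0.44), DVL2 -0.22 and DVL3 -0.07. AXIN1 had -0.20. AXIN2, which β-catenin induces in many tissues and which therefore often serves as its readout, had 88.3 to 176 normalized counts in the cycle and 61.3 to 157 in pregnancy (-0.21, 95% interval -0.96 to 0.55).

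Of the 8 nuclear members, TLE3, TLE1 and TCF7 had an unadjusted p under 0.05, a level that 7.51% of all genes reached. TLE3 (ENSBTAG00000015580), a corepressor that TCF and LEF factors carry, had 2340, 1799, 2706 and 2280 normalized counts in the cycle. Pregnant replicates 1, 2, 4 and 5 had 1788, 1691, 1799 and 1328. The groups touched at a single point, since the lowest CL of the cycle and the highest of pregnancy were both at 1799. The log2 difference was -0.46 (SE 0.14, 95% interval -0.78 to -0.14, limma adjusted p = 0.568) and lay between -0.57 and -0.27 over the 16 alternatives. Its unadjusted p was under 0.05 in 15 of them.

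TLE1 (ENSNDHG00000405847), a second corepressor of the same family, pointed the other way. It had 1295, 1501, 1512 and 2119 normalized counts in the cycle. In pregnancy it had 1749, 1913, 2546 and 2118, each above 3 CL of the cycle, while cyclic replicate 4 lay above all but pregnant replicate 4 (log2 difference 0.38, SE 0.17, limma adjusted p = 0.647). TLE4 (ENSBTAG00000003532) had 2266, 2005, 1927 and 2105 in the cycle and 2025, 1661, 2270 and 2033 in pregnancy (-0.06, SE 0.11, limma adjusted p = 0.911). TLE2 had 160 to 195 and 175 to 240 (0.19). The ratio of TLE1 to TLE3, picked after the values were seen, was 0.553, 0.834, 0.559 and 0.929 in the cycle. In pregnancy it was 0.978, 1.13, 1.42 and 1.59, with no overlap, and it is another of the 64 pairs of members for which this held. How reads shared by related TLE transcripts were counted is not stated, so these values are less certain where the sequences match.

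**Figure D3:**
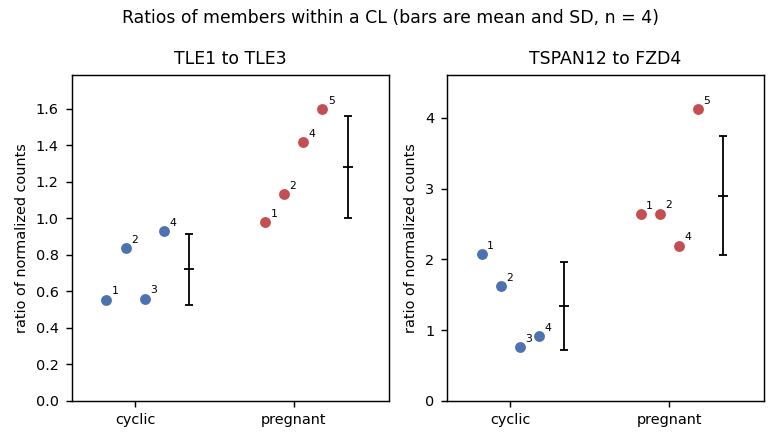
Ratio of normalized counts of TLE1 to TLE3 (left) and of TSPAN12 to FZD4 (right) in each CL, with replicate numbers, mean and SD (n = 4), on linear axes from 0. The ratios were not corrected for transcript length, so their differences between CL can be read but not their level. Both are chosen examples of the 64 pairs whose groups did not overlap.

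TCF7 (ENSBTAG00000001002), one of the factors to which β-catenin binds and also a factor of T cells, had 1742, 1297, 1482 and 1659 normalized counts in the cycle. The CL of pregnancy had 1250, 1384, 1215 and 1053. Of these, 3 lay under every CL of the cycle (log2 difference -0.33, SE 0.13, limma adjusted p = 0.614). LEF1, likewise a factor of both, had 379 to 934 in the cycle, with the highest value in cyclic replicate 3, and 320 to 576 in pregnancy (-0.38, 95% interval -1.04 to 0.27). T and NK cell markers lay in the opposite direction, with the sums given above not overlapping between groups, and their part was not tested. Among them was CD3E, a part of the T cell receptor, with 379 to 782 in the cycle and 722 to 903 in pregnancy. TCF7L2 had 0.21 (95% interval -0.07 to 0.48), and TCF7L1, at 2 to 10 reads per CL, had -0.40.

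**Figure D4:**
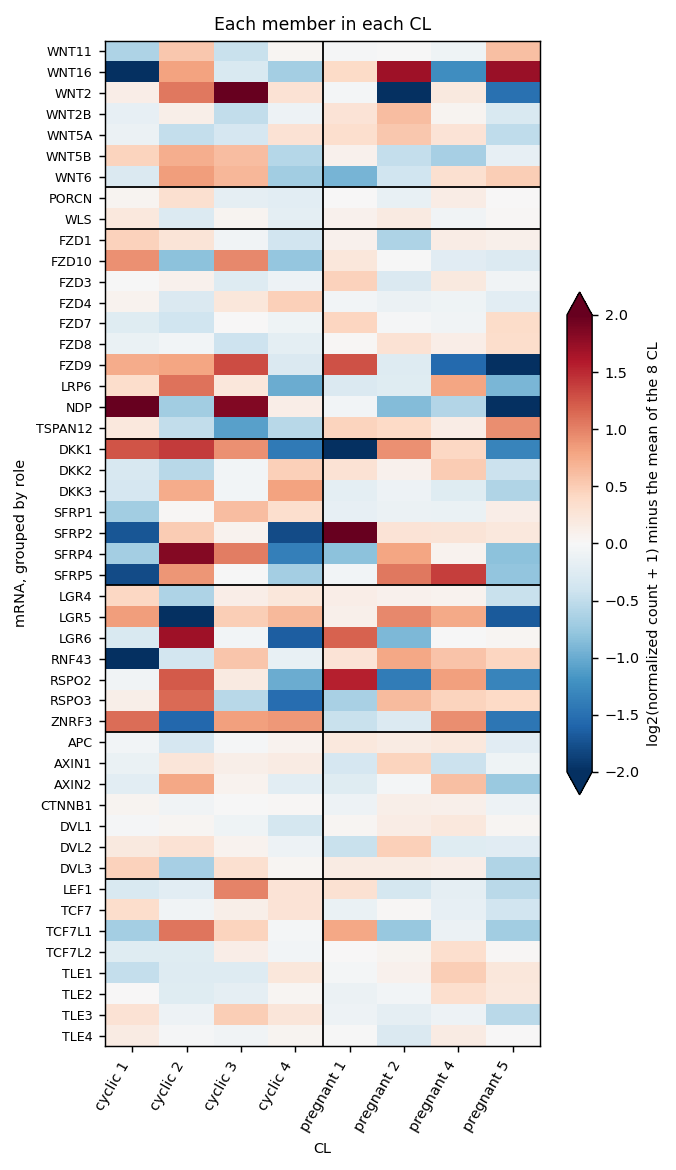
Each of the 48 members (rows, grouped by role) in each CL (columns), as log2(normalized count + 1) minus the mean of that member over the 8 CL, with colors cut at -2 and 2. The line between cyclic 4 and pregnant 1 separates the groups. Strong colors lie mostly in single CL of rows with few reads, such as WNT16 and DKK1, and in NDP, SFRP2 and SFRP4.

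Across CL, the members varied in a pattern that crossed the groups and was also present over all genes. In 12 of the 48, or 25%, cyclic replicate 2 was the lowest CL of the cycle and pregnant replicate 5 the lowest of pregnancy, beside 14.1% of all genes. These were APC, DKK2, DVL3, FZD4, FZD10, LGR4, LGR5, NDP, TCF7, TLE3, WNT5A and ZNRF3. No other pairing of a cyclic with a pregnant CL held more than 5 members as both lowest. Over all genes the other pairings held 3.48 to 8.36%, so cyclic replicate 2 with pregnant replicate 5 led there too. LGR5 was at 2.90 and 4.30 normalized counts in these CL and at 17.3 to 31.8 in the others, and ZNRF3 at 3.86 and 4.30 beside 9.59 to 30.4. The same CL were both highest in 4 members, WNT11, FZD8, WNT6 and WNT16, or 8.33% beside 12.7% of all genes. They were also highest in STAR and HSD3B1, but the other luteal markers differed. PTGFR was lowest in both, at 42386 and 51894, and CYP11A1 and SCARB1 were highest in cyclic replicate 1 and pregnant replicate 2. Cyclic replicate 2 with pregnant replicate 1, and with pregnant replicate 2, were both highest in 6 members each, or 12.5% beside 4.2 and 5.74% of all genes. This was noticed after the values were seen and was not tested.

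Spread between heifers of a group was wider in members with few reads. The 14 members with a mean under 50 reads had 1 to 44 reads per CL and a median SD within groups of 1.10 on the log2 scale, while the other 34 had a median of 0.32. Over all genes the median was 0.26. NDP, SFRP4, SFRP2 and RSPO3 stood above other members of like abundance, with 1.19, 1.18, 1.08 and 0.89, and CTNNB1 had the smallest spread of the 48, at 0.10.

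**Figure D5:**
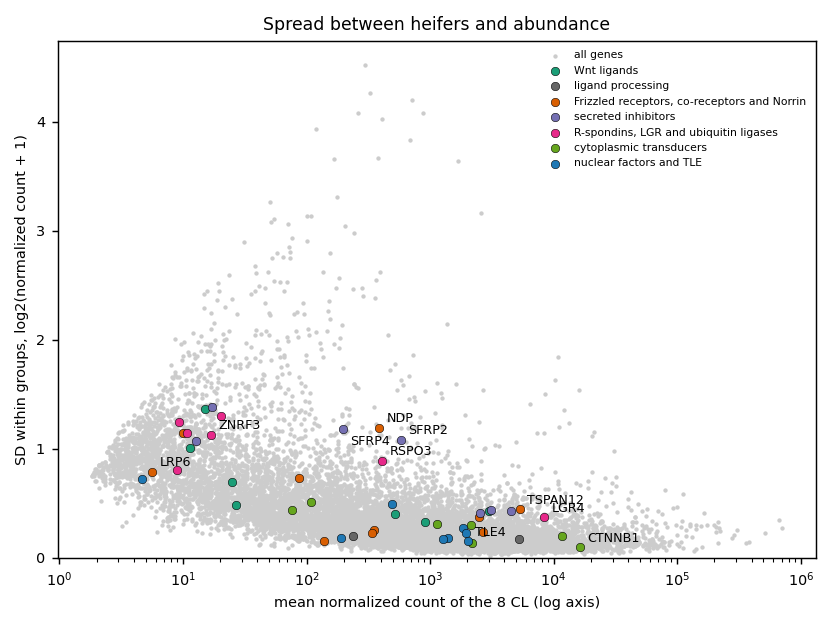
SD within groups of log2(normalized count + 1), pooled over cycle and pregnancy, against the mean normalized count of the 8 CL (log axis) for all genes (gray) and the members (colored by role). NDP, SFRP4, SFRP2 and RSPO3 lie near 1 at mean counts where most genes lie lower, and CTNNB1 lies at 0.10.

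Other genes of the pathway were read from a list of 65 symbols, 45 of which were in the table: kinases, regulators of the destruction complex, receptors of the β-catenin-independent branches and extracellular inhibitors. In limma, edgeR and DESeq2 0 of them passed. An unadjusted p under 0.05 was found for 4, or 8.89% of the 45, close to the 7.51% of all genes, and 3 of these lay higher in pregnancy. Of the 45, 26 were above 0 and 19 below (median 0.07). The planar polarity protein VANGL2 (ENSBTAG00000006560) had 46.7, 59.9, 99.8 and 50.1 normalized counts in the cycle and 34.5, 26.9, 48.8 and 20.4 in pregnancy (log2 difference -0.96, SE 0.36, limma adjusted p = 0.614). Its partners in planar polarity CELSR2 (ENSBTAG00000018804) and PRICKLE1 (ENSBTAG00000008596) lay on the other side. CELSR2 had 6049, 3836, 3924 and 5895 in the cycle and 7591, 7381, 5910 and 5440 in pregnancy (0.44, SE 0.18, limma adjusted p = 0.626). PRICKLE1 had 1519, 1340, 1145 and 1122 in the cycle and 1819, 1527, 1507 and 1417 in pregnancy (0.30, SE 0.13, limma adjusted p = 0.647). GSK3B (ENSBTAG00000048057), the kinase that marks β-catenin for destruction, had 3038, 2416, 2958 and 3089 in the cycle and 3868, 3801, 3558 and 2860 in pregnancy. As with APC, 3 CL of pregnancy lay above the cycle and pregnant replicate 5 did not (0.29, SE 0.12, limma adjusted p = 0.634).

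Of 32 genes known as targets of β-catenin in some tissue, or of Norrin and Fzd4 in mouse retinal vessels, 28 were in the table. In limma and edgeR 0 passed and in DESeq2 1 did, JUN, where 0.723% of all genes passed. This list was chosen with earlier results of these data known, so its shares carry no test. An unadjusted p under 0.05 was found for 4, or 14.3% beside 7.51% of all genes, of which 1 lay higher in pregnancy, and 17 of the 28 were below 0 (median -0.07). The 3 that lay lower were JUN, MYC and FOSL1, which answer to many other signals as well. FOSL1 (ENSBTAG00000006194), a partner of JUN in the factor AP-1, had 787, 284, 765 and 872 normalized counts in the cycle. Pregnant replicates 1, 2, 4 and 5 had 387, 240, 351 and 298, and cyclic replicate 2 lay among them (log2 difference -0.98, SE 0.34, limma adjusted p = 0.589). JUN (ENSBTAG00000004037) had 6550, 5593, 6382 and 6930 in the cycle and 4055, 4291, 5286 and 4560 in pregnancy (-0.49, SE 0.10, limma adjusted p = 0.431, with 0.0179 in DESeq2 to 0.780 over the alternatives). It was the 1 of the 28 whose groups did not overlap, or 3.57% beside 4.3% of all genes. MYC (ENSBTAG00000008409) had 2028, 3923, 3078 and 3054 in the cycle and 1837, 1568, 2016 and 2211 in pregnancy (-0.64, SE 0.19, limma adjusted p = 0.542, DESeq2 adjusted p = 0.0917). The paper describes MYC in these data as more abundant in the cycle. BMP4 (ENSBTAG00000003835), a growth factor, had 307, 383, 382 and 390 in the cycle and 575, 372, 675 and 480 in pregnancy (0.50, SE 0.19, limma adjusted p = 0.622). Of the 5 genes listed for the action of Norrin and Fzd4 in mouse retinal vessels, MFSD2A had -0.72, CLDN5 -0.44, SOX17 -0.22, PLVAP -0.07 and SOX18 -0.0029, and none passed. The list does not say in which direction the signal moves each gene. These signs, and the count of 17 below 0, therefore do not measure the signal.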

How the data were processed

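RNA from CL of 8 heifers was sequenced, 4 in the cycle and 4 pregnant. The authors deposited 1 table of normalized counts for 13861 genes, a signal made by dividing the reads of a gene by 1 factor per CL. For these files the aligner, counter, genome build and annotation were not stated, so no coordinates are printed. The table's 2 columns of group means were not used. Dividing by the smallest value of a CL gave whole reads, within 0.01, for 99.9% of values. Of reads from 2 to 9, 71.4 to 77.2% were even, so counting error may be understated.

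Values were tested as log2(value + 1) with limma 3.58.1 (trend, R 4.3.3, mean of at least 1, which all genes passed), with Benjamini-Hochberg adjustment over all genes and a threshold of 0.05. The 95% intervals are limma's. Alternatives were no filter or a minimum mean of 5, a pseudocount of 0.5 or 5, quantile scaling, omission of single CL, a replicate block, edgeR 4.0.16 and DESeq2 1.42.0 on recovered reads, and 2 other thresholds. The fit with no filter was the main fit again, so its agreement, counted among the 16 alternatives, was fixed in advance. The fits were run on simulated counts with a set spread, in which only genes with a mean over 50 reads were changed. That run does not cover the 14 members under 50 reads, and its outcome is not given here. Values per CL were given for members with an unadjusted p under 0.05 or no overlap between groups, for NDP, FZD4 and TSPAN12, and for the 2 most abundant of each role, and of the other lists for up to 4 genes with the smallest p. The 5 retinal vessel genes and the markers INHA, DCN, CD2, DES, CD3E and KRT18 were added after the values were seen. So were the markers KRT19, MSLN, UPK3B, CDH1, PTGFR, CYP11A1 and SCARB1. Members and lists were chosen with earlier results of these data known. Figures used Python 3.11.15 and matplotlib 3.10.9.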

Additional observations from a re-analysis of the deposited data

Results flagged for a closer look

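In 5 of 56 groups of 4 CL looked at (28 named genes in 2 groups), 1 CL lay far from the other 3 by Dixon's ratio, where chance gives about 1 in 20. In pregnant replicate 5, APC had 9839 normalized counts beside 12980 to 13320 in the other CL of pregnancy, LGR4 had 6044 beside 8637 to 8945, and WNT11 had 4352 beside 2696 to 2869. SFRP2 had 1884 in pregnant replicate 1 beside 484.7 to 505.6. BMP4 had 306.5 in cyclic replicate 1 while cyclic replicates 2 to 4 had 382.5 to 389.6.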

How the results depend on the processing

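The count of members that passed was 0 in limma, edgeR, DESeq2 and all other alternatives with an adjusted p, and 8 at an unadjusted p under 0.05, which was 5 to 9 when 1 CL was left out, lowest without cyclic replicate 1, where NDP, SFRP2, TCF7 and TLE1 were no longer among them, while the share of all genes ran from 5.94 to 9.63%. Other pathway genes and target genes numbered 4 each at an unadjusted p under 0.05, and DESeq2 called 1 target. Of all genes, 1 passed with a pseudocount of 5, 1 in edgeR, 94 in DESeq2, 1 to 4 when 1 CL was left out (4 without cyclic replicate 1 or pregnant replicate 4, 1 without any other), 0 with the replicate block and 1041 at an unadjusted p under 0.05. Of 448 fold changes of named genes under alternatives, 432 kept their direction and their side of the threshold, 1 newly passed (JUN in DESeq2) and 15 turned their direction, each in a gene that did not pass. With the replicate block LGR4 was at 0.086, PORCN at -0.049 and WNT11 at -0.023, and the differences of NDP (-1.09), TSPAN12 (0.61), TLE3 (-0.27), WNT2 (-1.15) and VANGL2 (-0.53) were over 1.5 times smaller. In this fit the difference rests on replicates 1, 2 and 4, since 3 and 5 occur in 1 group each. PORCN was at -0.0039 in edgeR and -0.0036 in DESeq2. When 1 CL was left out, CTNNB1 ran from -0.033 to 0.041, LGR4 from -0.30 to 0.055, PORCN from -0.062 to 0.12, RSPO3 from -0.022 to 0.86 and TLE4 from -0.13 to 0.024. The cause was not tested. WNT2 was at -1.14 with a pseudocount of 5. Deviations of same-numbered CL correlated at 0.0246, -0.0506 and 0.0113 for replicates 1, 2 and 4. Pairs of CL with different numbers ran from -0.0976 to 0.18. Whether same-numbered CL share more than a number was not tested. At 4 CL per group and 1 to 44 reads, 14 members could show only large differences.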
